A study of Mus musculus with 18 samples.

Results

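The transcripts described here encode 10 products of the exocrine pancreas, read in RNA that was labelled as newborn mouse liver. They are Prss3, Ctrb1, Cela3b, Cpa1, Cpb1, Pnlip, Pnliprp1, Amy2a5, Sycn and Zg16, 10 of the 16535 named genes on the array. They were chosen by measured values of these same libraries, after several of them had stood out in single exposed females. Each gene is represented by the probe whose RefSeq identifier belongs to its symbol, and by the brighter probe in the liver channel where the array holds more than 1. The raised values in the exposed females are therefore a description and carry no test. Of the 10 genes, 9 passed the filter on dim probes (a Cy5 spot marked well above background on 4 or more arrays), and Pnlip did not.

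The study asked how particles in the airways of a pregnant mouse act on her offspring. Pregnant dams of the strain C57BL/6BomTac were instilled through the trachea with Printex 90, a carbon black of nanometre-sized particles, or with its vehicle, Milli Q water. Instillations fell on days 7, 10, 15 and 18 of gestation. The exposed dams of the samples used here had the high dose, 67 µg per instillation and 268 µg in total. Livers were taken from pups of postnatal day 2, and each array held 1 pup's liver RNA in Cy5 and Stratagene universal reference RNA in Cy3. The groups were 5 control females (numbered 2, 4, 8, 9 and 11), 4 high-dose females (4, 6, 8 and 13), 5 control males (1, 3, 5, 6 and 7) and 4 high-dose males (5, 7, 9 and 14). The litter of a pup was not given in the labels, so p-values below measure the spread between these pups. Controls always occupied positions 1 and 2 of a slide and exposed pups positions 3 and 4, so exposure and array position cannot be told apart. Control males were always at position 1 and control females at position 2, so sex and position cannot be told apart among controls.

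The exocrine pancreas makes the enzymes that digest food in the gut. Its acinar cells store proteases, lipases and amylase as inactive or packaged secretory proteins in zymogen granules and release them through the pancreatic ducts into the duodenum. In the mouse the pancreas lies beside the stomach, spleen and duodenum, close to the liver. Hepatocytes also make an amylase, encoded by Amy1, and the amylase genes are close copies of each other.

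The members whose levels moved together most strongly are shown first by the sequence before their transcription start, with the member that stayed level (Amy2a5) for comparison. Acinar genes are known targets of PTF1, a complex that contains a basic helix-loop-helix factor and RBPJL and reads an E-box together with a TTTCCC-like site. The 250 bases before the RefSeq start were searched on both strands for the E-box CACCTG, for a second E-box, CAGCTG, and for the hexamer TTTCCC, and the letters of each match are in capitals. The windows, from RefSeq on GRCm38.p6, are chr6:41377614-41377863 (minus strand) for Prss3, chr4:137430521-137430770 (minus strand) for Cela3b, chr3:20275734-20275983 (minus strand) for Cpb1, chr6:30638968-30639217 (plus strand) for Cpa1 and chr3:113258700-113258949 (minus strand) for Amy2a5.
Prss3: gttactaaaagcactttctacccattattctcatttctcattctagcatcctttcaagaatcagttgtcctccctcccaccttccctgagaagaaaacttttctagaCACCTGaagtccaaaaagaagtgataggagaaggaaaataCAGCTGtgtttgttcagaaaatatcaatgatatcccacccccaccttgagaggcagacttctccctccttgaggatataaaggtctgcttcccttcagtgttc
Cela3b: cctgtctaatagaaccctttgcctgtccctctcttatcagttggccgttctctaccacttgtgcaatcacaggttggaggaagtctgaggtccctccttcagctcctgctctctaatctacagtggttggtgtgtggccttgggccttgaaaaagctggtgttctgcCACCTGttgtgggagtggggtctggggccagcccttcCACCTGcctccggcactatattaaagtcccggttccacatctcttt
Cpb1: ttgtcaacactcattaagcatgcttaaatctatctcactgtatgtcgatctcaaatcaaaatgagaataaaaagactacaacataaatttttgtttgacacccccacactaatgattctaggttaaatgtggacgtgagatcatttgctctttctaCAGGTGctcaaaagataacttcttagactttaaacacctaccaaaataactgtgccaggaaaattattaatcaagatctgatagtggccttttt
Cpa1: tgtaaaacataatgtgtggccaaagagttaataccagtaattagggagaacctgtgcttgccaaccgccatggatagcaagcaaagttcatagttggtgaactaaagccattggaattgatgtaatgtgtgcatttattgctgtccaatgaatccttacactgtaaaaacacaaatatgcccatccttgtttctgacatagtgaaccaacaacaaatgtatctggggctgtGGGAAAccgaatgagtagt
Amy2a5: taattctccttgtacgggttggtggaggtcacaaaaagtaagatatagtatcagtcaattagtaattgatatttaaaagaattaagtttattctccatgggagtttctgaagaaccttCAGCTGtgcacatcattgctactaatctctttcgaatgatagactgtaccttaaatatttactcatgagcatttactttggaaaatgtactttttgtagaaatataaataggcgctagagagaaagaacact
Prss3 holds CACCTG starting 143 bases before the start and CAGCTG at 103 bases. Cela3b holds CACCTG at 83 and at 46 bases, and Cpb1 holds it on the other strand (CAGGTG) at 94 bases. Cpa1 holds TTTCCC on the other strand (GGGAAA) at 19 bases. Amy2a5 holds CAGCTG at 132 bases. Over the 9 members with an entry (all but Zg16), CACCTG was found in 3, the E-box CAGCTG in 3 and the hexamer TTTCCC in 2. Among 32851 mouse promoter windows of the same length, 17.2% hold CACCTG, 13% hold the second E-box and 21.9% hold the hexamer. The matches are letters in a window and carry no measurement of binding.

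Signal was alike across arrays. The median Cy5 intensity was 130 to 153 per array over a local background of 79 to 82.5, so a probe near 100 is close to background. Between 54.7% and 67.9% of probes had Cy5 well above background. The library labelled control male 6 read like the females for Y-linked and X-inactivation genes (list median -1.08 against 1.36 in control male 3). The members' median in males and the count of calls between control sexes are therefore also given without it. High male 7 carried skeletal muscle genes (list median 2.80). The hepatocyte markers Alb, Apoa1, Ttr and Afp, which encode plasma proteins, were well above background on all 18 arrays.

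Values are log2 ratios of liver over reference, so 1 unit is a doubling of the ratio. The serine protease zymogen Prss3, a trypsinogen, read 4.95 in high female 8 and 4.04 in high female 13. It also read 3.07 in control male 3. The other high females read 0.0074 (high female 4) and 0.045 (high female 6). The control females 2, 4, 8, 9 and 11 read 0.047, -0.0073, 0.69, -0.14 and -0.073. The control males 1, 5, 6 and 7 read 0.25, -0.10, -0.041 and -0.0063. The high males 5, 7, 9 and 14 read -0.15, 0.092, -0.036 and -0.045. Thus 3 libraries were high, 1 of them an unexposed male, and both exposed and control groups held low values. In raw Cy5 intensity the same probe gave 6091.5, 2060 and 945.5 in these 3 libraries and 94 to 156 in the other 15. A second Prss3 probe rose less over the mean of the 10 controls, by 3.51, 1.81 and 0.50 in high female 8, high female 13 and control male 3, where the first rose by 4.59, 3.67 and 2.70. Trypsinogen genes are near-identical copies, so the share of either probe's signal that comes from Prss3 itself is uncertain.

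Cela3b, a pancreatic elastase, had the same 3 high libraries. High female 8 had 5.25, high female 13 had 4.20 and control male 3 had 3.46, against -0.013 to 0.88 in the other 15. Cpb1, carboxypeptidase B, which trims basic residues, read 5.44, 4.17 and 2.59 against -0.13 to 0.51. Cpa1, carboxypeptidase A, which trims aromatic and aliphatic residues, read 3.60, 2.83 and 2.41 against 0.13 to 0.79. For each of these proteases the highest of the other 15 libraries was control female 8 (0.69 for Prss3, 0.88 for Cela3b, 0.51 for Cpb1 and 0.79 for Cpa1). Control female 8 thus stood a little above the rest for 4 proteases, at raw Cy5 of 125 to 157 and near background. Outside the 3 high libraries, Cpb1 was well above background on 1 of 15 arrays, Cpa1 on 6, Cela3b on 7 and Prss3 on 9.

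Ctrb1, a chymotrypsinogen, read 2.88, 2.31 and 1.00 in the same order, against 0.27 to 0.66 elsewhere. Its spot was marked as an outlier in control female 2 and high male 5, and those 2 libraries are left out of its values and fit. Unlike the carboxypeptidases, Ctrb1 was well above background on all 16 arrays that measured it, at raw Cy5 of 194 or more.

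**Figure D1:**
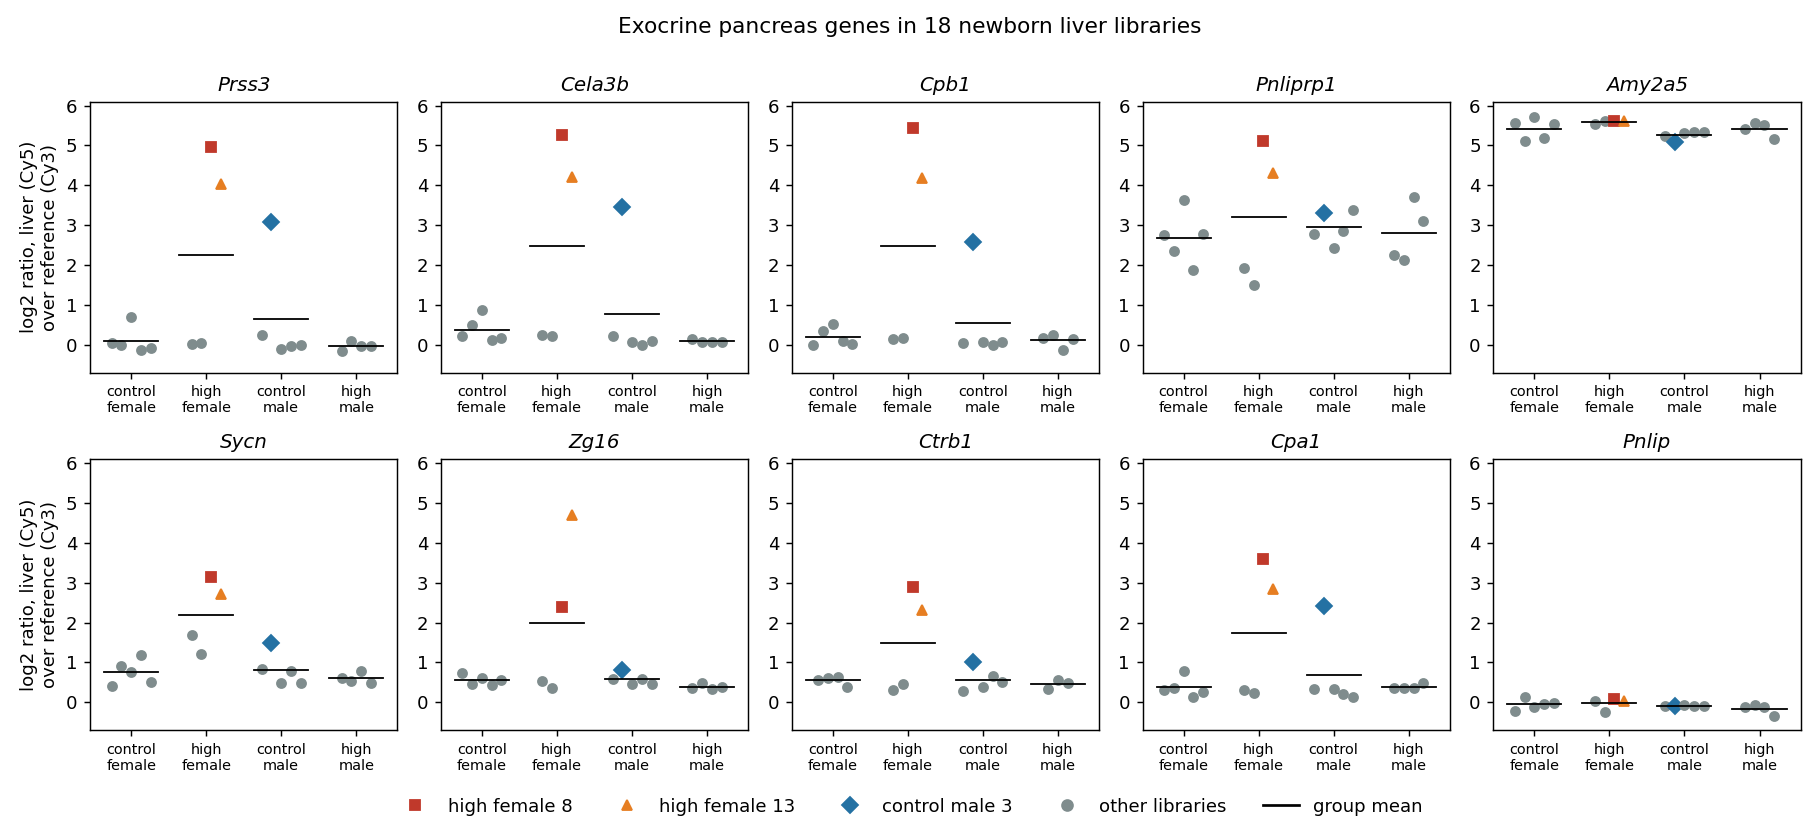
Log2 ratio of liver (Cy5) over reference (Cy3) for each of the 10 genes (panels), 1 point per library, by group; bars are group means and coloured marks are high female 8, high female 13 and control male 3. The coloured marks lie above all grey points for the 5 proteases, while Amy2a5 and Pnlip are level across all 18 libraries.

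The 2 lipase family genes behaved differently from each other. Pnlip, pancreatic triglyceride lipase, was not well above background on any of the 18 arrays, with raw Cy5 of 81 to 92, so its probe gives only a bound in every group. In high female 8, high female 13 and control male 3 it read 0.075, 0.041 and -0.083, within the range of the other 15 libraries (-0.35 to 0.14). Pnliprp1, a lipase-related protein, was well above background on all 18 arrays. It read 5.11 in high female 8 and 4.30 in high female 13. High females 4 and 6 read 1.92 and 1.49. The control females 2, 4, 8, 9 and 11 read 2.75, 2.35, 3.63, 1.88 and 2.78. The control males 1, 3, 5, 6 and 7 read 2.77, 3.30, 2.42, 2.84 and 3.39. The high males 5, 7, 9 and 14 read 2.25, 2.13, 3.69 and 3.11. Control male 3 lay inside the range of the other libraries for this gene, and high female 6 was the lowest of all 18. The SD of Pnliprp1 over the 15 libraries was 0.65, against 0.11 to 0.35 for the other members in the same libraries.

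Amy2a5, pancreatic amylase by name, was level. Its lowest, median and highest log2 ratios over the 15 libraries were 5.12, 5.41 and 5.70. High female 8 read 5.62, high female 13 5.60 and control male 3 5.09, the last below all others. Raw Cy5 was 4967 to 15700 in the 15 libraries and no spot was saturated. Amy1, the amylase made by liver, also stayed within the control range in high female 8 (0.27 over the control mean) and high female 13 (0.25), with controls at -0.53 to 0.49. Amylase genes are near-identical copies, so the share of the Amy2a5 probe's signal that comes from another amylase gene is not known here.

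The zymogen granule proteins Sycn and Zg16 were both highest in high females 8 and 13, in opposite order. Sycn, syncollin, binds the inside of the granule membrane. The high females 4, 6, 8 and 13 read 1.69, 1.20, 3.15 and 2.72. The control females 2, 4, 8, 9 and 11 read 0.42, 0.91, 0.75, 1.19 and 0.51. The control males 1, 3, 5, 6 and 7 read 0.84, 1.48, 0.48, 0.80 and 0.48. All 4 high females lay above every control female, though high female 6 (1.20) and control female 9 (1.19) were nearly equal. Control male 3 lay above high female 6. The high males 5, 7, 9 and 14 read 0.62, 0.53, 0.78 and 0.48.

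Zg16 encodes a lectin of zymogen granules that goblet cells of the gut also make. It read 2.39 in high female 8 and 4.69 in high female 13. High females 4 and 6 read 0.54 and 0.36. The control females 2, 4, 8, 9 and 11 read 0.74, 0.46, 0.60, 0.45 and 0.55. Among the control males 1, 3, 5, 6 and 7 it read 0.58, 0.81, 0.47, 0.59 and 0.45. The high males lay between 0.33 and 0.48. Zg16 was the only member higher in high female 13 than in high female 8, by 2.30. The other 7 raised members were higher in high female 8, by 0.43 (Sycn) to 1.27 (Cpb1). In control male 3 Zg16 lay 0.27 above the mean of the 9 other controls.

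**Figure D2:**
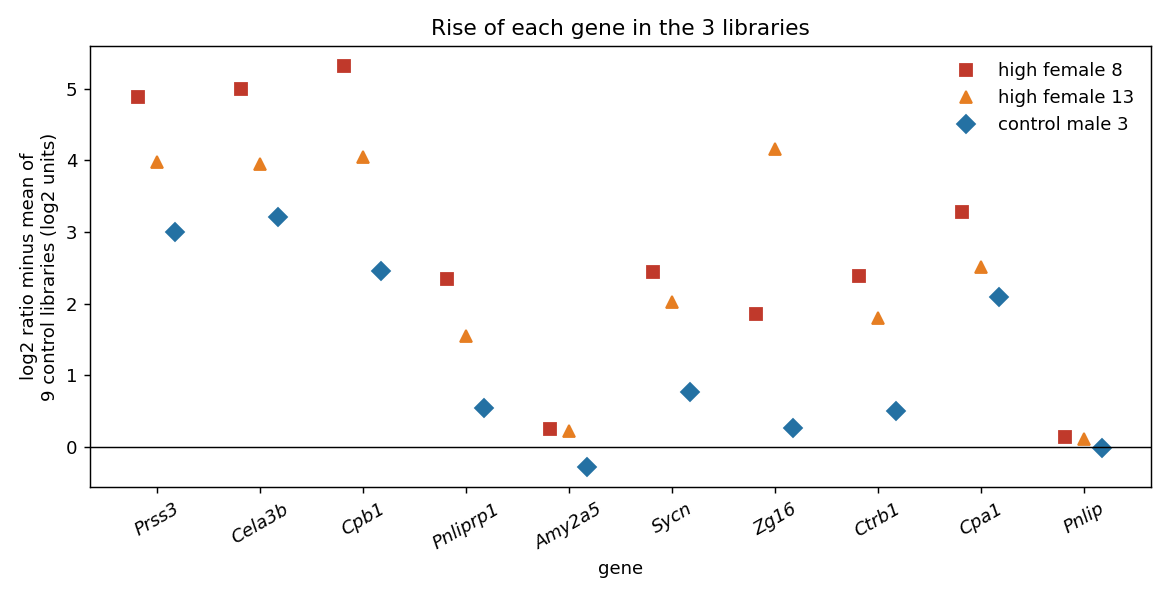
Log2 ratio of each gene in high female 8, high female 13 and control male 3 minus the mean of the 9 other control libraries, on a log2 axis. Zg16 is 4.15 in high female 13 and 1.85 in high female 8, the reverse of the other raised genes, and in control male 3 Prss3, Cela3b, Cpb1 and Cpa1 lie between 2.09 and 3.21.

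Set against the mean of the 9 controls without control male 3, 8 of 10 members exceeded 1 log2 unit in high female 8 and 8 in high female 13, and 4 did in control male 3 (Prss3 3.00, Cela3b 3.21, Cpb1 2.46 and Cpa1 2.09). Among all 21070 transcripts tested, 1.69%, 4.43% and 0.0902% exceeded 1 in these libraries. The median over the 10 members was 2.41, 2.27 and 0.66. The 8 members high in the exposed females were above all 15 other libraries in both, and 6 members were so in control male 3. Over all transcripts 13.4%, 20.2% and 4.02% were above all 15 other libraries in high female 8, high female 13 and control male 3. The 3 libraries lay on different slides (high female 8 on slide 4, high female 13 on slide 5 and control male 3 on slide 3). By the date in each array's name, the arrays were scanned on 3 days. High females 8 and 13 were both scanned on day 3, and high females 4 and 6 and control male 3 on day 2. Among the exposed females, raised values and scan day therefore cannot be told apart.

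In the comparison of high against control females, whose values helped to choose the members, the members' median difference was 1.40, and the median of all 21070 transcripts tested was 0.0029. The members' median counts Pnlip, although Pnlip was not well above background in either group and its difference cannot be interpreted. The other members ranged from 0.17 (Amy2a5) to 2.29 (Cpb1, near background in most control females). The mean Prss3 ratio was 2.26 ± 2.61 (SD, n = 4) in high females and 0.10 ± 0.33 (SD, n = 5) in control females. The large SD reflects 2 high and 2 low libraries. For 7 members exactly 2 of the 4 high females, numbers 8 and 13, lay above every control female. Sycn was the only member with no overlap between the groups (2.19 ± 0.90 against 0.75 ± 0.31). Over all transcripts with values in every library, 2.08% showed such separation in this direction. Over all transcripts tested, limma called 0.641% higher and 0.816% lower, which is 307 transcripts, and calls of members are not given here because this contrast helped to choose them. Leaving out any single library except control female 9 moved that count by over 1.5 times, to between 0 and 2396, and it was 470 without high females 8 and 13.

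Without high females 8 and 13 the female median of the members was -0.10. Prss3, Cela3b, Cpb1, Zg16 and Cpa1 then differed by -0.077, -0.14, -0.043, -0.11 and -0.10, and Pnliprp1 by -0.97. Sycn kept a difference of 0.69. Within slides, Prss3 differed by 4.27 on slide 4 and 4.18 on slide 5, which held high females 8 and 13, and by -0.039 and 0.053 on slides 2 and 3. Sycn differed by 1.27, 0.29, 2.40 and 1.54 on slides 2, 3, 4 and 5. Amy2a5 differed by 0.17, and by -0.15 after scale normalization between arrays.

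In males the choice of members did not use the exposure contrast, and no member passed the test. The spread per transcript came from all 18 arrays, so high females 8 and 13 and control male 3 widened it for raised members. For Prss3 the SE was 0.86 in this test, although the SD of the high males was 0.099. That no member passed therefore says little about the members in males. The members' median was -0.20, where that of all transcripts was 0.014, and 1 of 10 members (Amy2a5) was above 0. Of the 9 members tested, 0 passed (limma, Benjamini-Hochberg over 21070 transcripts, adjusted p = 0.999946 for each), and 0% of transcripts did, with 355 at an unadjusted p under 0.05. The higher control means rested on control male 3. Prss3 was 0.63 ± 1.37 (SD, n = 5) in control males and -0.035 ± 0.099 (SD, n = 4) in high males. Without control male 3 the median was -0.015. The groups overlapped for all 10 members, and 0.742% of transcripts had every high male above every control male. Cpb1 was well above background in 1 of 5 control males and in 0 of 4 high males, that one being control male 3, so no fold between the groups is given for it. Without control male 6 the median was -0.22.

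Between control males and control females no member passed the test. The median difference (male minus female) was 0.16 over the 10 members and -0.0065 over all transcripts. Prss3, at 0.53 ± 0.81 (SE), was the largest, and it was -0.078 without high females 8 and 13 and control male 3. No member passed (limma, adjusted p = 0.999982 for each of 9), and 0% of transcripts did, with 311 at an unadjusted p under 0.05. Without control male 6 the count of transcripts was 10, none of them a member. The spread here too came from all 18 arrays. With control male 6 among the males, the test also called 0 of the 4 measured sex-linked genes, Xist and Ddx3y among them. The absence of calls therefore says little about the members.

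The 14 measured genes of a wider acinar list (of 34 listed, 27 on the array) were read in the same libraries. Measured genes are those that passed the filter on dim probes, so a gene could enter through the raised libraries. Prss2, Rnase1, Tff2 and Klk1 passed on 4 arrays each, of which 1 was a control. The list median describes genes so chosen and is no separate support for the members. The median of the 14 reached 1.86 (high female 8), 1.82 (high female 13) and 0.42 (control male 3). The 9 other controls lay at -0.14 to 0.090 (log2 minus the mean of the 10 controls). Clps, the cofactor of pancreatic lipase, read 3.26, 2.88 and 1.82 in the 3 libraries. Try5, a trypsinogen, read 4.14, 2.99 and 1.80, and Cel, bile salt-stimulated lipase, 3.45, 1.89 and 1.16. All of these were over 1 in control male 3. Prss2, a trypsinogen, read 2.76, 1.75 and 0.45, and Rnase1, a secreted ribonuclease, read 2.24, 1.03 and 0.65. Rbpjl, the acinar subunit of PTF1, read 0.74, 0.39 and 0.43, with the 9 other controls at -0.23 to 0.24.

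Several of the 14 did not follow. Ctrl, a chymotrypsin-like protease, read 0.068, 0.00096 and 0.15. Bhlha15, the acinar transcription factor MIST1, read 0.34, -1.19 and -0.071, and also 1.23 in high female 4 and -1.39 in high female 6. Cela1, an elastase, was highest in high female 6 (2.01) and read 0.61 in high female 8 and 0.59 in high female 13. Dmbt1, Tff2 and Klk1 were higher in high female 13 (5.43, 4.05 and 1.95) than in high female 8 (3.47, 1.49 and 0.83), as Zg16 was. Dmbt1 and Tff2 are also made by the lining of stomach and intestine. Of the 14, 0 were called by limma in either direction in females, in males or between control sexes. Over all transcripts tested, 0.641% were called higher and 0.816% lower in females, and 0% in males or between control sexes. At such shares a count of 0 among 14 genes says nothing about the list, which genes could enter through the raised libraries.

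**Figure D3:**
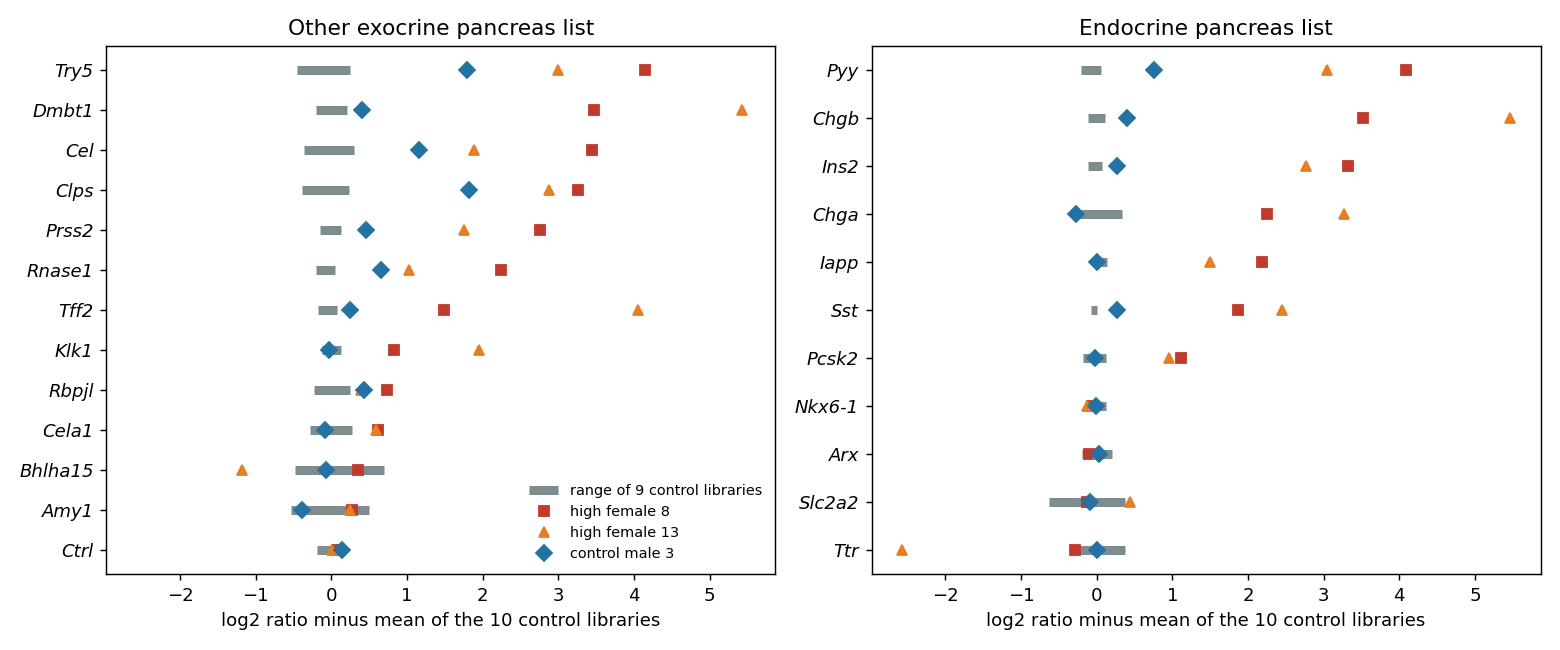
Log2 ratio minus the mean of the 10 controls for 13 of the 14 measured genes of the wider acinar list and the 11 of the endocrine list; marks are high female 8, high female 13 and control male 3, and grey bars span the 9 other controls. In control male 3 acinar genes such as Clps (1.82) lie off the bars, while Ins2 is 0.27 where high female 8 has 3.32.

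Endocrine pancreas genes were high in the exposed females 8 and 13 and near the controls in control male 3. Ins2, insulin, read 3.32 in high female 8 and 2.76 in high female 13, and 0.27 in control male 3, with the 9 other controls at -0.12 to 0.072. Chgb, a granin of hormone granules, read 3.52, 5.47 and 0.40. Chga, another granin, read 2.25, 3.27 and -0.27. Sst, somatostatin, read 1.87, 2.45 and 0.27. Pyy, a gut and islet hormone, read 4.09, 3.05 and 0.75. The list median (11 measured of 25) was 1.87 and 1.50 in the exposed females and 0.0097 in control male 3. Some of the 11 passed the filter on few arrays. Ins2 and Chgb did so on 5 arrays and Sst on 4, of which 2 were controls for each gene. In control male 3, Pyy, Chgb, Ins2 and Sst lay above the 9 other controls, and 0 of 11 exceeded 1, against 7 and 6 in high females 8 and 13.

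Other tissues differed between the exposed females as well. High female 13 had a median of 2.04 for the small intestine list (10 measured of 24), and high female 8 had 0.15. Vil1, an actin bundler of the brush border, read 4.18 and 1.04, Mep1a, a brush border protease, 3.69 and -0.13, and Sct, secretin, 4.23 and 0.45. Gkn3, a gastrokine of the stomach, read 4.57 and 0.10, and Ghrl, ghrelin, 2.01 and 0.37. Tff1 of the same list read 1.80 and -0.23. Not all stomach genes followed in high female 13, where Ctse, cathepsin E, read -1.98 and the proton pump gene Atp4a -0.035. Ctse was also low in high females 4, 6 and 8 (-1.70, -0.86 and -0.96). The stomach list median (7 measured) was 0.34 in high female 13 and -0.027 in high female 8. In the opposite order, Col3a1 and Lum of connective tissue read 2.82 and 2.51 in high female 8 and 0.82 and -0.20 in high female 13. The list median (18 measured) was 1.11 and 0.46, while the contractile genes Tagln (1.23 and 1.84), Acta2 (1.09 and 1.71) and Des (0.59 and 1.53), and Sparcl1 (2.27 and 2.64), were higher in high female 13. Myl1 and Acta1 of skeletal muscle read 3.42 and 2.88 in high female 8, 1.25 and 0.32 in high female 13, and 6.31 and 5.54 in high male 7, where the 10 members had a median of -0.19. The muscle list median (13 measured) was 0.45 in high female 8, -0.043 in high female 13 and 2.80 in high male 7. In control male 3 the small intestine, stomach and muscle medians were 0.043, -0.0022 and 0.069, and the mesothelium and stroma list stood at 0.33, with the 9 other controls at -0.24 to 0.15. In bulk RNA, more cells of a type and more RNA per cell cannot be told apart, and the part of these other tissues in the members' values was not tested.

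The hepatocyte list median stayed within the controls in all 3 libraries. Over 20 measured genes it was -0.030 (high female 8), 0.096 (high female 13) and -0.40 (control male 3), where the 9 other controls spanned -0.57 to 0.75. Alb, albumin, read -0.093, 0.033 and -0.40. Apoa1 of high-density lipoprotein read 0.045, 0.089 and -0.44, and Afp, fetal albumin's relative, read -0.15, -0.54 and -0.83. Ttr, transthyretin, read -0.29, -2.57 and 0.0073. The erythroid median was -0.52, -1.23 and -0.34, where the 9 other controls spanned -0.48 to 0.64. It was also low, at -0.84, in high female 4, where the acinar list was not raised (-0.058).

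**Figure D4:**
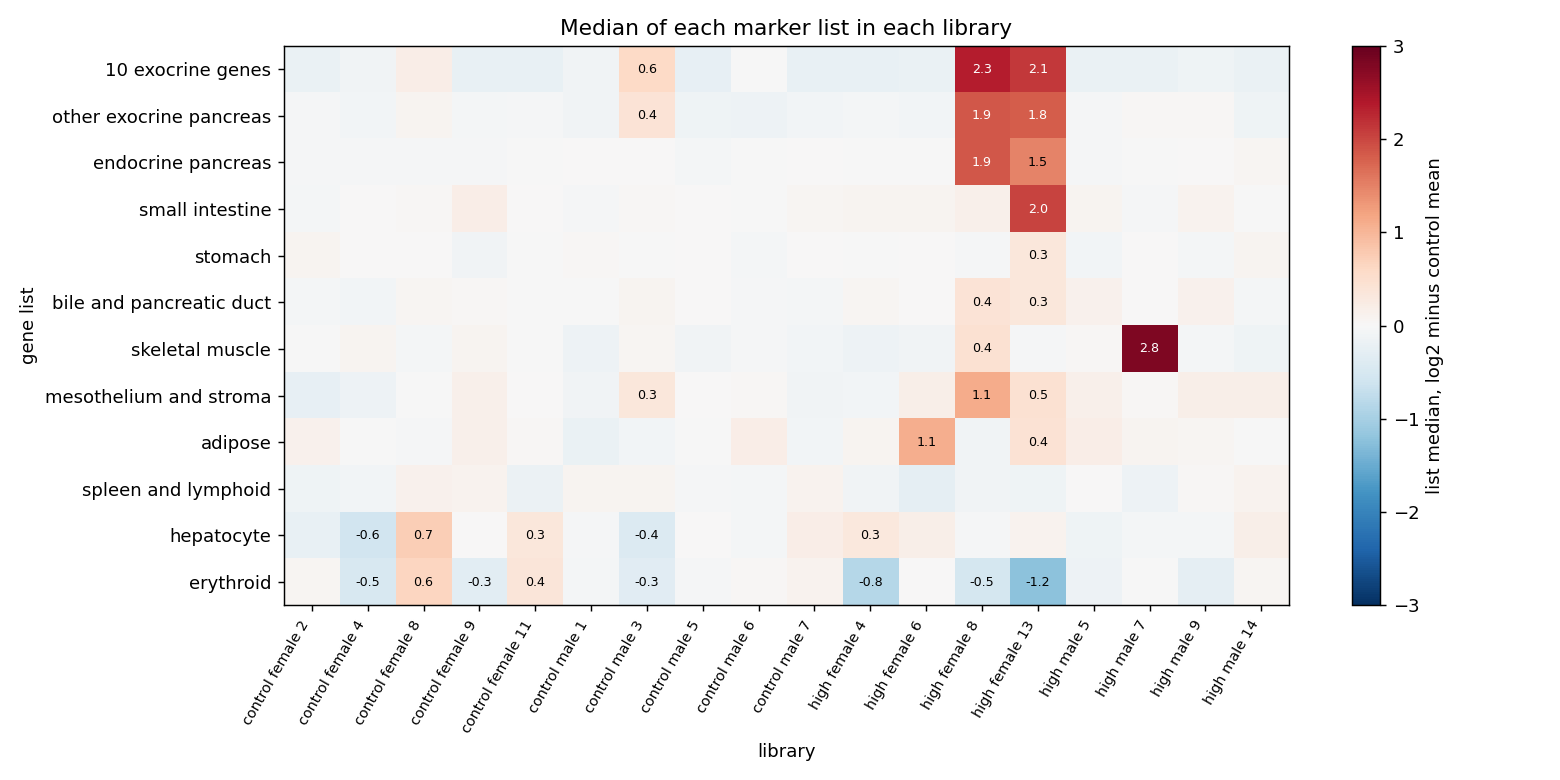
Median of each marker list (rows) in each of the 18 libraries (columns), as log2 ratio minus the mean of the 10 controls; numbers are printed where the size is 0.3 or more. The top rows, the 10 genes and the wider acinar list, are raised in high female 8, high female 13 and control male 3, while the endocrine row is raised in the 2 exposed females and the small intestine row in high female 13.

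The members varied together mainly through the high libraries. Over the 45 pairs of members the median Pearson correlation was 0.76 over 18 libraries (0.022 to 0.997), 0.34 over the 16 without high females 8 and 13, and 0.44 over the 10 controls, among which control male 3 is one. These are descriptions over libraries that share a reference RNA and slides. Among the 12 transcripts most like the per-library mean of the members were Clps (r = 0.994), Try5 (0.991), an unnamed probe A_51_P384436 (0.984), 2210010C04Rik (0.977), Cel (0.974), Pyy (0.969), Tspan3 (0.962), Prss2 (0.957), 6330403K07Rik (0.952), Rnase1 (0.949) and Ins2 (0.946). Over the 16 libraries without high females 8 and 13, r stayed at 0.987 for Clps and 0.970 for 2210010C04Rik and was 0.46 for Ins2 and 0.58 for 6330403K07Rik. 7 of the 12 were also among the 12 most alike over those 16 libraries, and 8 over the 10 controls. 2210010C04Rik read 4.79, 2.81 and 2.35 in the 3 high libraries and at most 0.26 in the other 15.

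The level in liver without the 3 high libraries differed among the members. Amy2a5, Pnliprp1 and Sycn were well above background in all 15 other libraries and Ctrb1 in the 13 that measured it. Raw Cy5 in those libraries was 295.5 to 1259 for Pnliprp1, 130 to 319.5 for Sycn and 194 to 295.5 for Ctrb1, over local backgrounds between 72 and 87.5. Zg16 was well above background in 13 of the 15, yet at raw Cy5 of 101 to 137 it was no brighter than Prss3 (94 to 156) and Cela3b (103 to 157). Cpb1 and Cpa1 were near background there too, at 125 or less and 131.5 or less, and Pnlip was not well above it on any array. The reference channel moved less than the liver channel for each raised member. For Cpb1, Cy3 intensity spanned 0.71 log2 units over the 18 arrays and Cy5 5.54. For Zg16 they spanned 1.35 and 5.04, and for Cpa1 1.89 and 4.59. Among the 18 arrays, Cy3 was itself highest in high female 13 for Zg16 and in high female 8 for the other raised members. A higher Cy3 makes a ratio smaller. For Amy2a5 they spanned 1.56 and 1.66.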

How the data were processed

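Per the file headers, the deposited scanner files hold spot and local background intensity from Agilent Feature Extraction 10.1.1.1, and a log10 ratio of Cy5 over Cy3. The series table deposited by the authors holds log2 ratios, normalized by a method not given in the sources used here. Per the file headers, flags mark outlier spots and spots well above background. Per the labels, Cy5 is liver and Cy3 the reference.

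Median spot signals were processed in limma 3.58.1 (R 4.3.3) with normexp background correction (offset 50) and a loess fit per array. Outlier spots were set to missing. Of 41174 probes, 26167 had Cy5 well above background on at least 4 of 18 arrays. RefSeq identifiers matched to symbols (GRCm38.p6 table) named 56.8% of probes. The brightest probe per gene gave 21070 transcripts, 12542 of them named. Lmfit with 1 mean per group over 18 arrays, eBayes and Benjamini-Hochberg (adjusted p under 0.05) gave the calls, tested on simulated data. Per-library list values subtract the mean of 10 controls. Named genes are the members, the 12 transcripts most like their mean, the wider acinar list, and list markers of large SD. The members and lists were chosen with earlier results of these data known, and 1 gene of the wider list is not reported here. Alternatives changed the background, normalization, filter, blocks and libraries; setting control male 3 aside was added after seeing its values. Array number limits the precision.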

Additional observations from a re-analysis of the deposited data

Results flagged for a closer look

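Within groups of 4 or 5 libraries, 40 sets of member values were searched for a library far from the rest, and 7 were found. Chance flags about 1 in 20 independent sets, but these sets are not independent and the members were chosen for values that stood out in single libraries, so nothing is read from the share. Values are log2 ratios minus the mean of the 10 controls. Control male 3 stood apart from the other control males for Prss3 (2.70), Cela3b (2.89), Cpb1 (2.21) and Cpa1 (1.88), where the nearest control male was at -0.12, -0.35, -0.30 and -0.19. Control female 8 stood apart for Prss3 (0.32, the nearest at -0.32). Cpa1 in high male 14 (-0.046, with the others at -0.167 to -0.175) and Pnlip in high female 6 (-0.18) stood apart by small amounts near background. High females 8 and 13 are a pair within a group of 4, so neither could be marked by a search for a single distant library.

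Sycn differed between sexes in direction. High minus control was 1.44 in females, where all 4 high females lay above the mean of the control females, and -0.21 in males, where all 4 high males lay below that of the control males. The male value rested on control male 3 (log2 ratio 1.48): without it the difference was -0.048, and high male 9 (log2 ratio 0.78) lay above the mean of the other control males. The difference between the sexes was 1.65, and it was not tested, because Sycn was chosen on the female values.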

How the results depend on the processing

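The count of 307 called transcripts in females (135 higher, 172 lower) depended on the processing. It was 71 with the Feature Extraction log ratio, 70 with normexp offset 0, 149 with median centring (143 higher and 6 lower), 905 with scale normalization, 53 with no filter on dim probes, and 0 with array weights or with the arrays of females alone. Without high females 8 and 13 it was 470. Leaving out 1 library at a time gave 0 (control females 2, 8 and 11 and control males 1 and 5) to 2396 (high female 4). The replicate block gave 0; same-numbered pups were not shown to pair, with correlations of their deviations of 0.034 and 0.13 in females and -0.18 and -0.069 in males. Among male against female controls the counts were 0 to 10, the 10 without control male 6. In males the count was 0 under each alternative run.

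The female median of the members stayed between 0.99 and 1.88 except without high females 8 and 13, with or without control male 3, where it was -0.10. There Prss3 was -0.077, Cela3b -0.14, Cpb1 -0.043, Zg16 -0.11 and Cpa1 -0.10, because the libraries left out are those that held the high values. The main median of 1.40 counts all 10 members, while alternatives that kept the filter on dim probes leave Pnlip out. Setting control male 3 aside, chosen after seeing its values, moved the single-library medians from 2.35 to 2.41 in high female 8 and from 2.12 to 2.27 in high female 13. Single members could move more than the median. The female difference of Pnliprp1 was 0.53 in the main fit, -0.67 with the Feature Extraction log ratio and 0.0089 with normexp offset 0. Members near background carry compressed log2 ratios, since normexp with offset 50 shrinks dim values.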

Other observations

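The members stood beside different tissue genes in the 3 libraries. Secretory stress and zymogen handling genes (18 measured) had medians of 0.065 (high female 8), -0.20 (high female 13) and 0.11 (control male 3). The 9 other controls lay between -0.10 and 0.068. Hspa5, the main chaperone of the endoplasmic reticulum, read 0.026, 0.74 and 0.20. Protease inhibitors of serum (11 measured) had medians of -0.049, -0.027 and -0.40, within the 9 other controls (-0.46 to 0.61), while Serpina3k among them read 1.28 in high female 8 and 1.83 in high female 13. Duct genes were raised in the exposed females only in part: Krt19, a keratin of duct cells, read 2.38, 1.62 and 0.65, Cldn7, a tight junction protein of epithelia, 1.88, 3.64 and 0.30, and Cftr, a chloride channel of ducts and gut, 0.18, 2.35 and 0.0046. Spp1, osteopontin, read 2.51 in high female 8 and -0.47 in high female 13. The median of the adipose list (5 measured) was highest in high female 6, at 1.08, though Cidec (3.06) and Cidea (1.08) read higher in high female 13 (3.29 and 1.75) and Lpl was -0.61. In high female 6 the 10 exocrine genes had a median of -0.21. Spleen and lymphoid genes (12 measured) were not raised in the 3 libraries, with medians of -0.11, -0.12 and 0.071.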
